A study of Mus musculus with 15 samples.

Results

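The alpha and mu glutathione transferases of mouse liver were described here from 10 genes, 4 of the alpha class (Gsta1, Gsta2, Gsta3 and Gsta4) and 6 of the mu class (Gstm1, Gstm2, Gstm3, Gstm4, Gstm6 and Gstm7). They were chosen by symbol, and all 10 were among the 23420 gene symbols counted. The series asked how fatty liver disease changes the handling of tetrachloroethylene, a chlorinated solvent, in mice. RNA sequencing of polyA RNA from the pulverized left liver lobe gave 15 libraries, 5 for each of 3 diets.

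The MCD group was fed a diet with 31% fat that was deficient in methionine, choline and folate. The HFD group was fed a high-fat diet with 31% fat, and the BD group a base diet with 4% fat. All groups were male C57Bl/6J mice, an inbred strain. Every library was labelled as taken 24 h after the vehicle, saline with 5% of the emulsifier Alkmauls El-620, and none as given the solvent. MCD and HFD differ in the 3 nutrients at equal fat content. HFD differs from BD in fat, and MCD differs from BD both in fat and in the 3 nutrients. The labels give neither the time on diet nor the age of the mice. Nor do they tie each library to a separate animal, and the p-values therefore reflect only how much these samples scattered.

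Cytosolic glutathione transferases are enzymes built of pairs of subunits that join the thiol of glutathione to electrophilic compounds, which makes them more soluble and ready for export. In rodent liver the alpha and mu classes make up a large part of these enzymes, and several members are induced by antioxidants and drugs through the transcription factor NRF2 and through the nuclear receptors CAR and PXR. Conjugation with glutathione is also the minor route of tetrachloroethylene metabolism, beside its oxidation by P450 enzymes. The glutathione itself is made from cysteine, which the liver can derive from methionine.

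The coding sequences are shown first, because how far the members resemble each other decides how well reads can be given to 1 of them. The first 60 coding bases of each member follow (GENCODE M21, GRCm38), with capitals where a member differs from Gsta2 in the alpha class or from Gstm1 in the mu class.
Gsta1: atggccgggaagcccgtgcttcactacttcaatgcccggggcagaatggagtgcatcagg
Gsta2: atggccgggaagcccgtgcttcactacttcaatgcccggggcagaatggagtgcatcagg
Gsta3: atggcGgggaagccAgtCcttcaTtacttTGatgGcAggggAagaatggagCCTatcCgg
Gsta4: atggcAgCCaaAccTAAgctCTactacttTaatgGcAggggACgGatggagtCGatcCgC
Gstm1: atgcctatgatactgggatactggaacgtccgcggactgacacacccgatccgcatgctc
Gstm2: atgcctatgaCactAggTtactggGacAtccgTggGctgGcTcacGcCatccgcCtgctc
Gstm3: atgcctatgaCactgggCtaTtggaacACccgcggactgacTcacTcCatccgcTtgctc
Gstm4: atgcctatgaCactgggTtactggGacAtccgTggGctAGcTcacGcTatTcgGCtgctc
Gstm6: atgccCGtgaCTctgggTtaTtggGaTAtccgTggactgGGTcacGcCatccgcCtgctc
Gstm7: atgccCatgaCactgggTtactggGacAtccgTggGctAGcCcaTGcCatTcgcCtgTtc
Gsta1 and Gsta2 have the same first 60 bases, while Gsta3 differs from Gsta2 at 13 of them and Gsta4 at 19. The mu members differ from Gstm1 at 9 (Gstm3) to 16 bases (Gstm6 and Gstm7).

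Over the whole coding sequence Gsta1 and Gsta2 were 97.5% identical, with 17 differences in 672 aligned bases, and the other alpha pairs 66.0% to 75.5%. The mu pairs ran from 79.1% (Gstm3 with Gstm4) to 89.5% (Gstm1 with Gstm3), and Gsta3 with Gstm1 came to 51.3%. Coding bases 449 to 508 of Gsta1 and Gsta2 hold 5 of the 17 differences, in capitals, and show the kind of stretch on which the counts of Gsta1 and Gsta2 depend.
Gsta1: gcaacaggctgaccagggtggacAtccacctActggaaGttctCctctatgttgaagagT
Gsta2: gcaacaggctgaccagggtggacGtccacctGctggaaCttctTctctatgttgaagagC
Gsta1 was still nearer to another gene of the same cluster, Gm3776, with 99.7% identity, and Gsta2 was 98.5% identical to Gm10639.

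The share of each transcript's stretches of 100 bases that occurs in no other gene was 18.2% for Gsta1, 65.0% for Gsta2, 86.2% for Gstm3 and 92.3% for Gstm1. It was 97.5% for Gstm6, 99.4% for Gstm2 and 100% for Gsta3, Gsta4, Gstm4 and Gstm7. Of the stretches of Gsta1, 71.3% also occur in Gm3776. The read length is not given in the sources used here, and with stretches of 50 bases the shares of Gsta1 and Gsta2 were 10.3% and 35.8%. At that length the shares were 71.2% for Gstm3, 76.9% for Gstm1, 88.2% for Gstm6 and 90.6% for Gstm2. The values of Gsta1 and Gsta2 are therefore uncertain, and those of Gstm1, Gstm2, Gstm3 and Gstm6 rest on most but not all of their length.

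**Figure D1:**
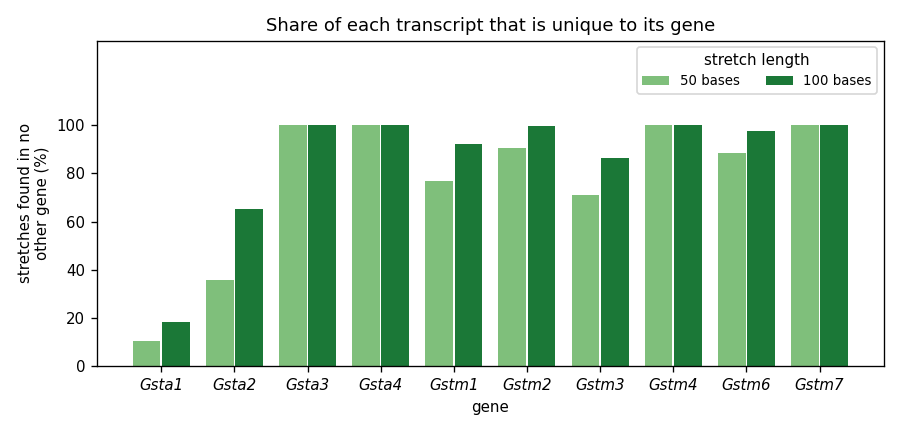
Share of all stretches of 50 bases (light) or 100 bases (dark) in a transcript of each member that occur in no other annotated gene, in percent. Gsta1 and Gsta2 stand apart at 18.2% and 65.0% for 100 bases, while Gsta3, Gsta4, Gstm4 and Gstm7 are at 100%.

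The genes lie in 3 places (GRCm38). Gsta4 (chromosome 9, 78182774 to 78209349, plus strand), Gsta1 (78230656 to 78242684, plus strand) and Gsta2 (78331018 to 78355788, minus strand) share a cluster on chromosome 9, and Gsta3 stands alone on chromosome 1 (21240589 to 21265661, plus strand). The 6 mu genes share a cluster on the minus strand of chromosome 3, in the order Gstm7 (107926334 to 107931817), Gstm6 (107938847 to 107943749), Gstm3 (107963696 to 107969283), Gstm2 (107981702 to 107986453), Gstm1 (108012255 to 108017973) and Gstm4 (108040408 to 108044894).

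RefSeq start-site windows (GRCm38.p6) were found for 9 of the 10 members, 14 windows in all, and the 250 bases before the start were searched on both strands for 3 motifs chosen for the known regulators of the family. TGACNNNGC, the core of the antioxidant response element that NRF2 binds, occurred in 2 of the 14 windows, against 10.2% of all 32851 windows of the same length. The matches are shown with the motif in capitals.
Gsta3 (chr1:21240454-21240482, plus strand): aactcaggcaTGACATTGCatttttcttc
Gstm7 (chr3:107931725-107931753, minus strand): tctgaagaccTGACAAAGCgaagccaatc
The match of Gsta3 lies 121 bases before the RefSeq start. That of Gstm7 lies before the inner of the gene's 2 RefSeq starts and downstream of the outer one, so it is inside the gene as placed above. AGGTCA, a half-site of nuclear receptors, was in 0 of 14 windows against 14% of all, and GTTAAT, a half-site of the hepatocyte factor HNF1, was in 1 (Gsta3) against 6.43% of all. These are matches of letters, and the data hold no binding measurement. Sequence further from the start than 250 bases was not searched, so a window without a match does not mean that the gene lacks the motif. Windows of the same gene can overlap, as those of Gstm1, Gstm4 and Gstm7 do, so the 14 windows are not independent.

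The libraries held 9146731 to 23131089 gene counts in MCD, 4367774 to 20892987 in HFD and 3704642 to 22338718 in BD, so that 3 counts corresponded to 0.118 to 0.851 CPM (a share of the gene counts of a library, on the usual CPM scale, with library sizes adjusted by TMM factors for composition). The first principal component of all 12193 genes tested held 37% of the variance. It placed HFD replicate 2 (28.4) among the MCD libraries (15.6 to 39.4) and apart from the other HFD libraries (-12.7 to -0.42) and the BD libraries (-37.8 to -21.1), and MCD replicate 3 was the MCD library nearest to the other HFD libraries. For each gene count there were 1.19 to 1.67 non-unique alignments in MCD, 1.15 to 2.53 in HFD and 1.49 to 2.80 in BD. The sample titles number MCD and HFD from 51 to 60 without a gap, while the BD numbers lie well above, and any effect that went with this numbering and the base diet cannot be told apart.

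Per kilobase of transcript, Gsta3 and Gstm1 were far above the other members in every diet. Gsta3 stood at 1172 ± 270.3 CPM per kb in MCD, 1086 ± 116 in HFD and 1660 ± 173 in BD (SD, n = 5 each). Gstm1, a major mu form of mouse liver, followed with 784 ± 114, 476.5 ± 175 and 1114 ± 200.4 CPM per kb in the same order of diets. Gstm6 came next on this measure, at 61.0 ± 17.3 CPM per kb in MCD, 56.7 ± 3.40 in HFD and 103 ± 20.9 in BD. In MCD it differed from Gsta4 (52.3 ± 12.2) by less than the SD. The order rests on 1 transcript a gene, of 1457 bases for Gsta3, 1289 for Gstm1 and 1153 for Gstm6. All exons of these genes together span 4344, 1473 and 1989 bases, and dividing by those lengths would change the order.

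Gsta4, Gstm4, Gstm3 and Gstm7 formed a middle group at 37.2 to 52.3 CPM per kb in MCD and 56.1 to 76.9 CPM per kb in BD. Within it Gstm7, Gstm4 and Gstm3 followed each other in BD at 60.3 ± 13.6, 57.1 ± 9.04 and 56.1 ± 23.5 CPM per kb, differences smaller than their SD. Gsta2 and Gsta1 had the lowest values, at 11.8 ± 2.83 and 3.71 ± 1.53 CPM per kb in MCD, 3.17 ± 1.39 and 0.486 ± 0.767 in HFD, and 23.1 ± 6.72 and 0.909 ± 0.150 in BD. These divide by the whole transcript, while only 65.0% of the 100-base stretches of Gsta2 and 18.2% of those of Gsta1 are unique. If shared reads were lost, the values are too low, so the rank of both genes is uncertain. The order differed in HFD, where Gsta4 (19.9 ± 5.05 CPM per kb) and Gstm3 (15.9 ± 4.50) stood below Gstm7 (37.7 ± 4.32) and Gstm4 (33.7 ± 4.63).

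Summed over the class, the alpha members ran from 1423 through a median of 1611 to 2406 CPM in MCD, from 1411 through 1616 to 1808 CPM in HFD and from 2121 through 2565 to 2835 CPM in BD. The mu members ran from 1009 through 1347 to 1477 CPM in MCD, from 617 through 758 to 1219 CPM in HFD and from 1496 through 1765 to 2408 CPM in BD. No HFD library reached the lowest BD library in either class, no MCD library reached the lowest BD library in the mu class, and MCD replicate 2 overlapped BD in the alpha class. The separation of MCD and BD in the mu class rests on the TMM factors. As an unadjusted share of gene counts, the mu sum was 0.163% in MCD replicate 1 and 0.147% in MCD replicate 5, above the 0.142% of BD replicate 5. The alpha sum was 70.5% of the BD mean in MCD and 63.8% in HFD, and the mu sum 70.9% in MCD and 44.9% in HFD. In whole tissue, fewer cells of a type and less RNA per cell cannot be told apart.

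Gsta3 alone made up 96.3% ± 0.57 of the alpha sum in MCD, 98.6% ± 0.31 in HFD and 96.2% ± 0.19 in BD (SD, n = 5 each). Gstm1 made up 77.4% ± 3.30 of the mu sum in MCD, 73.0% ± 5.52 in HFD and 78.1% ± 1.64 in BD. These are shares of counts with no correction for length, and not shares of transcripts. The transcript used for Gsta3 has 1457 bases, against 875 for Gsta1, 870 for Gsta2 and 977 for Gsta4. If shared reads of Gsta1 and Gsta2 were lost, the share of Gsta3 is too high. The share of Gsta4 in the alpha sum was 2.89% ± 0.33 in MCD, 1.21% ± 0.24 in HFD and 2.99% ± 0.19 in BD, and no HFD library (0.882% to 1.57%) reached an MCD library (2.43% to 3.21%) or a BD library (2.78% to 3.22%).

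**Figure D2:**
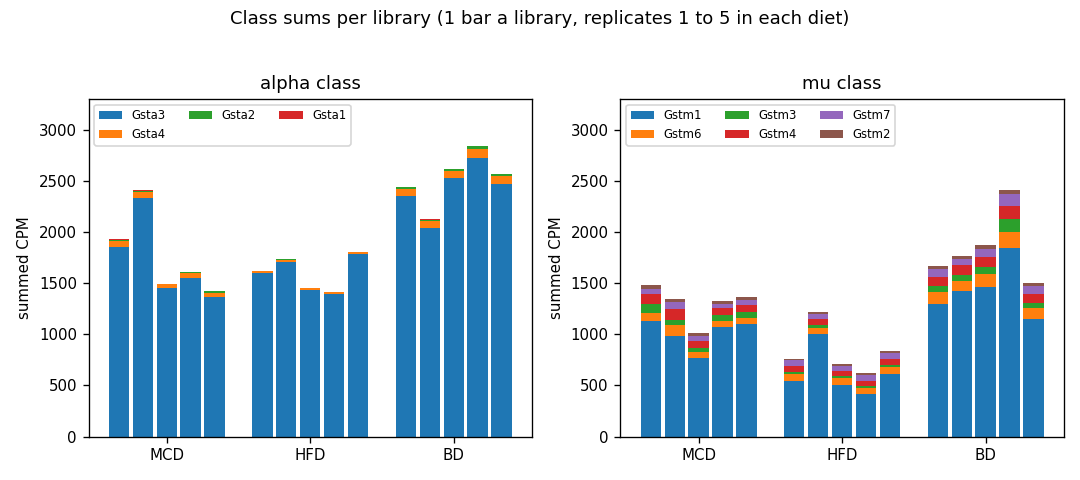
Summed CPM of the 4 alpha members (left) and the 6 mu members (right) in each library, 1 stacked bar a library, replicates 1 to 5 from left to right in MCD, HFD and BD. Gsta3 fills almost the whole alpha bar, Gstm1 most of the mu bar, and HFD replicate 2 has the highest mu bar of its diet (1219 CPM).

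Set against the base diet, the high-fat diet had lower counts of 9 of the 10 genes, at fold changes between -2.83 and -0.61 on the log2 scale, and higher counts of none. The largest decreases were those of Gsta2, Gsta4 and Gstm3, while Gsta3 and Gstm7 moved least. Of all 12193 genes tested, 6.92% were called in HFD vs BD, 3.27% lower and 3.65% higher (an edgeR quasi-likelihood test, called at an adjusted p under 0.05). All 10 members passed the filter on low counts, but Gsta1 only through its MCD libraries. It is left out of the medians and of the counts given as a number of the 9 genes, and counts that include it say so. The median of the other 9 was -0.87 (log2), against -0.01 over all genes tested.

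Gsta2, an alpha form that is inducible in mouse liver, stood at 10.1, 8.51, 7.21, 12.2 and 13.1 CPM in MCD replicates 1 to 5. It stood at 2.70, 4.53, 1.42, 1.93 and 3.23 CPM in the HFD replicates and at 18.2, 15.6, 22.3, 29.3 and 15.2 CPM in the BD replicates. The 3 diets did not overlap, with HFD lowest and BD highest. Gsta2 fell by 2.83 ± 0.27 in HFD against BD (log2, SE, adjusted p = 2.57e-06), to 13.7% of the BD mean.

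Gsta4, which is known for joining glutathione to 4-hydroxynonenal, a product of lipid peroxidation, stood at 61.8, 63.9, 36.3, 50.4 and 42.9 CPM in MCD. It stood at 14.2, 27.2, 18.0, 16.8 and 20.9 CPM in HFD and at 68.9, 68.3, 72.8, 84.7 and 80.9 CPM in BD. Again no library of 1 diet reached into another, and HFD was the lowest. Without TMM factors MCD replicate 1 of Gsta4 lay above BD replicates 1 and 2, so that MCD and BD overlapped, while HFD still lay below both. Gsta4 fell by 1.95 ± 0.17 in HFD against BD (log2, SE, adjusted p = 1.51e-06), to 25.9% of the BD mean.

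Gsta3, the alpha form that gives the mouse its resistance to aflatoxin through conjugation of the toxin's epoxide, stood at 1852, 2330, 1449, 1545 and 1363 CPM in MCD. It stood at 1599, 1702, 1431, 1393 and 1784 CPM in HFD and at 2348, 2037, 2522, 2720 and 2468 CPM in BD. All HFD libraries lay below all BD libraries, by a smaller margin than for the other alpha genes called. Gsta3 fell by 0.61 ± 0.13 in HFD against BD (log2, SE, adjusted p = 0.00733).

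Among the mu genes, Gstm3 stood at 85.9, 52.1, 40.6, 56.2 and 62.9 CPM in MCD, at 19.4, 30.6, 20.1, 14.4 and 19.8 CPM in HFD and at 65.0, 58.1, 68.1, 127.1 and 49.5 CPM in BD. Every HFD library lay below every library of the other diets, while MCD and BD overlapped. Gstm3 fell by 1.82 ± 0.28 in HFD against BD (log2, SE, adjusted p = 0.000789), to 28.4% of the BD mean.

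Gstm1 stood at 1133, 984, 766, 1072 and 1098 CPM in MCD, at 547, 998, 508, 411 and 607 CPM in HFD and at 1296, 1427, 1464, 1844 and 1153 CPM in BD. HFD replicate 2 lay among the MCD libraries, the other 4 HFD libraries lay below all of MCD, and BD lay above both diets. Without TMM factors MCD and BD overlapped for Gstm1. The decrease of Gstm1 in HFD against BD was 1.23 ± 0.20 (log2, SE, adjusted p = 0.00083).

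The other 4 mu genes had smaller decreases in HFD against BD and fell by 0.87 ± 0.16 for Gstm6, 0.86 ± 0.18 for Gstm2, 0.76 ± 0.15 for Gstm4 and 0.67 ± 0.14 for Gstm7 (log2, SE, adjusted p = 0.00227, 0.00626, 0.00328 and 0.00581). Of the 9 genes called, 8 had no HFD library above a BD library, and 3.56% of all genes tested were separated in this way, with 3.49% separated in the other direction. Gstm2 was the exception, with 13.8 to 22.5 CPM in HFD and 20.4 to 41.8 CPM in BD. The count of 9 was the same under each scaling, filter, tool and omission of a single library that was tried, and Gsta1 was called as well with HFD replicate 2 and MCD replicate 3 left out together (10 genes).

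**Figure D3:**
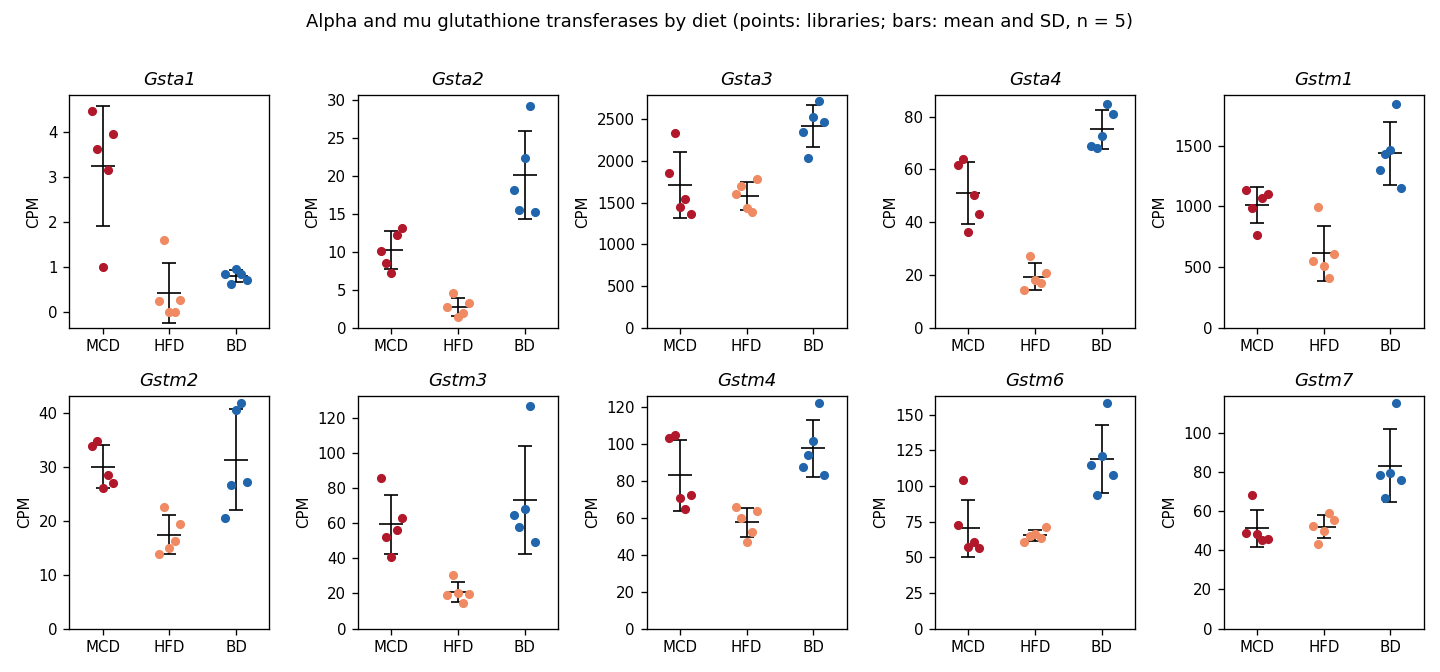
CPM of each member in MCD, HFD and BD, on a linear axis of its own. Points are libraries in the order of replicates 1 to 5, and bars are the mean and SD (n = 5). HFD is below BD for every gene but Gsta1 and, in part, Gstm2, and MCD is level with HFD for Gsta3, Gstm6 and Gstm7 but above it for Gsta2, Gsta4, Gstm2 and Gstm3.

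Set against the base diet, the deficient diet had lower counts of 5 of the 9 genes (Gsta2, Gsta3, Gsta4, Gstm6 and Gstm7), and the other 4, all of the mu class, were not called. Of all genes tested, 21.4% were called in MCD vs BD, 8.64% lower and 12.8% higher. The median of the 9 genes was -0.51 (log2), against -0.03 over all genes tested. The BD libraries are the same as in the comparison of HFD, so the results of the 2 comparisons are not independent of each other.

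Gsta2 fell by 0.97 ± 0.23 in MCD against BD (log2, SE, adjusted p = 0.00535), to 50.9% of the BD mean. Gsta4 fell by 0.56 ± 0.16 (log2, SE, adjusted p = 0.0201) and Gsta3 by 0.50 ± 0.13 (adjusted p = 0.0107). Gsta2 and, with TMM factors, Gsta4 had no MCD library above a BD library, while MCD replicate 2 of Gsta3 (2330 CPM) lay inside the BD range. The call of Gsta4 ended without TMM factors (-0.42, adjusted p = 0.0761) and without MCD replicate 3, MCD replicate 5 or BD replicate 4 (-0.44, -0.49 and -0.51, adjusted p = 0.0541, 0.0599 and 0.0537). With library sizes taken from hepatocyte markers the calls of Gsta4 (-0.31, adjusted p = 0.224) and Gsta3 (-0.26, adjusted p = 0.171) ended as well.

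Gstm6 stood at 72.9, 104, 57.5, 60.7 and 56.3 CPM in MCD, at 60.6, 64.7, 66.3, 63.7 and 71.3 CPM in HFD and at 115, 93.5, 121, 158 and 108 CPM in BD. Gstm7, its neighbour on chromosome 3, stood at 48.7, 67.9, 48.5, 45.3 and 45.6 CPM in MCD, at 52.2, 43.2, 49.96, 59.01 and 55.2 CPM in HFD and at 78.3, 66.5, 79.5, 115 and 75.9 CPM in BD. For both genes MCD replicate 2 was the only MCD library to reach the BD range. Gstm6 fell by 0.76 ± 0.16 and Gstm7 by 0.70 ± 0.14 in MCD against BD (log2, SE, adjusted p = 0.00201 and 0.00158).

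The 4 mu genes that were not called in MCD against BD had fold changes of -0.51 for Gstm1, -0.30 for Gstm3, -0.23 for Gstm4 and -0.07 for Gstm2 on the log2 scale. The 95% intervals were -0.92 to -0.10 for Gstm1, -0.85 to 0.26 for Gstm3, -0.54 to 0.07 for Gstm4 and -0.44 to 0.29 for Gstm2 (adjusted p = 0.0745, 0.455, 0.276 and 0.805). Gstm2 stood at 33.8, 34.7, 26.1, 28.4 and 27.0 CPM in MCD, at 13.8, 22.5, 14.9, 16.3 and 19.4 CPM in HFD and at 20.4, 26.6, 40.6, 41.8 and 27.2 CPM in BD. The MCD libraries lay inside the wide BD range.

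Although not called, Gstm1 had no MCD library above a BD library on the TMM scale, as had Gsta2 and Gsta4, while 6.08% of all genes tested were separated in this direction and 9.3% in the other. Without TMM factors this held for Gsta2 but not for Gsta4 or Gstm1. Gstm1 was called when only the MCD and BD libraries were fitted (-0.48, adjusted p = 0.024), without HFD replicate 2 (-0.49, adjusted p = 0.0156), with both that library and MCD replicate 3 left out (-0.41, adjusted p = 0.031) and when non-unique alignments were a covariate (-0.85, adjusted p = 0.000518). With that covariate Gstm3 was called too (-0.68, adjusted p = 0.038).

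Gsta1 had its highest mean level in MCD. It stood at 4.48, 3.63, 1.01, 3.16 and 3.96 CPM in MCD, at 0.253, 1.60, 0, 0 and 0.269 CPM in HFD and at 0.851, 0.619, 0.948, 0.852 and 0.707 CPM in BD. All MCD libraries lay above all BD libraries. MCD replicate 3 did so only just, at 1.01 CPM from 18 counts, against 0.948 CPM from 11 counts in BD replicate 3. HFD replicate 2 lay above MCD replicate 3. These levels rest on 261 counts in all MCD libraries together, 22 in HFD and 41 in BD, and only the MCD libraries reached the filter's level of 0.97 CPM as a group (5 of 5, against 1 of 5 in HFD and 0 of 5 in BD).

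A gene that enters the test through 1 diet in this way had to differ, so the fold changes of Gsta1 are a description. They were 2.04 ± 0.57 in MCD against BD (log2, SE, adjusted p = 0.0179), 2.90 ± 0.63 in MCD against HFD (adjusted p = 0.0224) and -0.87 ± 0.77 in HFD against BD (adjusted p = 0.597). When HFD replicate 2 and MCD replicate 3 were left out, the fold change in HFD against BD was -2.64 (adjusted p = 0.0095). The call against BD ended with limma-voom (1.81, adjusted p = 0.0558), without MCD replicate 1 (1.87, adjusted p = 0.0503) and when non-unique alignments were a covariate (1.09, adjusted p = 0.24). The call against HFD ended when only those 2 diets were fitted (2.91, adjusted p = 0.0723), with that covariate (2.40, adjusted p = 0.0675) and without MCD replicate 1 or 4 or HFD replicate 1, 3, 4 or 5 (2.35 to 2.91, adjusted p = 0.0521 to 0.0651).

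Gm3776, the near-identical neighbour of Gsta1, had 50 counts in all MCD libraries together, 5 in HFD and 13 in BD, and was under the filter on low counts. Gm10639 had 4, 0 and 2 counts in the same order of diets. In MCD, then, Gsta1 stood at 408% and Gsta2 at 50.9% of the BD mean, while their coding sequences are 97.5% identical. How reads shared by these genes were lost or divided was not tested.

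Set against the high-fat diet with the same fat content, the deficient diet had higher counts of 4 of the 9 genes (Gsta2, Gsta4, Gstm3 and Gstm2) and lower counts of none. Of all genes tested, 3.15% were called in MCD vs HFD, 2.22% higher and 0.927% lower. The increases were 1.86 ± 0.26 for Gsta2, 1.52 ± 0.27 for Gstm3, 1.40 ± 0.17 for Gsta4 and 0.78 ± 0.18 for Gstm2 (log2, SE, adjusted p = 0.00278, 0.0119, 0.00119 and 0.0252). For these 4 genes no HFD library reached an MCD library, HFD replicate 2 included, and 2.49% of all genes tested were separated in this direction and 1.83% in the other. The median of the 9 genes was 0.72 (log2), against 0.00 over all genes tested.

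Gstm4 stood at 103, 105, 70.7, 64.6 and 72.0 CPM in MCD, at 65.5, 59.6, 46.6, 52.4 and 63.6 CPM in HFD and at 87.4, 93.9, 101, 122 and 82.8 CPM in BD, and MCD replicate 4 lay within the HFD range. Without TMM factors no HFD library of Gstm4 reached an MCD library. Gstm1 and Gstm4 missed the threshold in MCD against HFD, with fold changes of 0.72 ± 0.19 and 0.52 ± 0.15 (log2, SE, adjusted p = 0.0539 and 0.0556). Both were called with DESeq2 (0.72 and 0.53, adjusted p = 0.0113 and 0.0264), and without HFD replicate 2 they were called at 0.98 and 0.55 (adjusted p = 0.000697 and 0.0397). Without MCD replicate 3 they were called at 0.81 and 0.58 (adjusted p = 0.0373 and 0.043), and Gstm4 was also called without MCD replicate 4 or BD replicate 4 (0.61 and 0.53, adjusted p = 0.0498 and 0.0475). The remaining 3 genes had fold changes near 0, with 95% intervals of -0.17 to 0.39 for Gsta3, -0.23 to 0.44 for Gstm6 and -0.32 to 0.27 for Gstm7 (log2, adjusted p = 0.682, 0.757 and 0.952).

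Of the 4 genes called, Gstm2 lost its call in several alternatives. It ended when non-unique alignments were a covariate (0.66, adjusted p = 0.112) and without MCD replicate 1 or 4 (0.74 and 0.81, adjusted p = 0.0713 and 0.052). It also ended without HFD replicate 1, 3 or 4 (0.72, 0.75 and 0.76, adjusted p = 0.0661, 0.0685 and 0.0794).

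**Figure D4:**
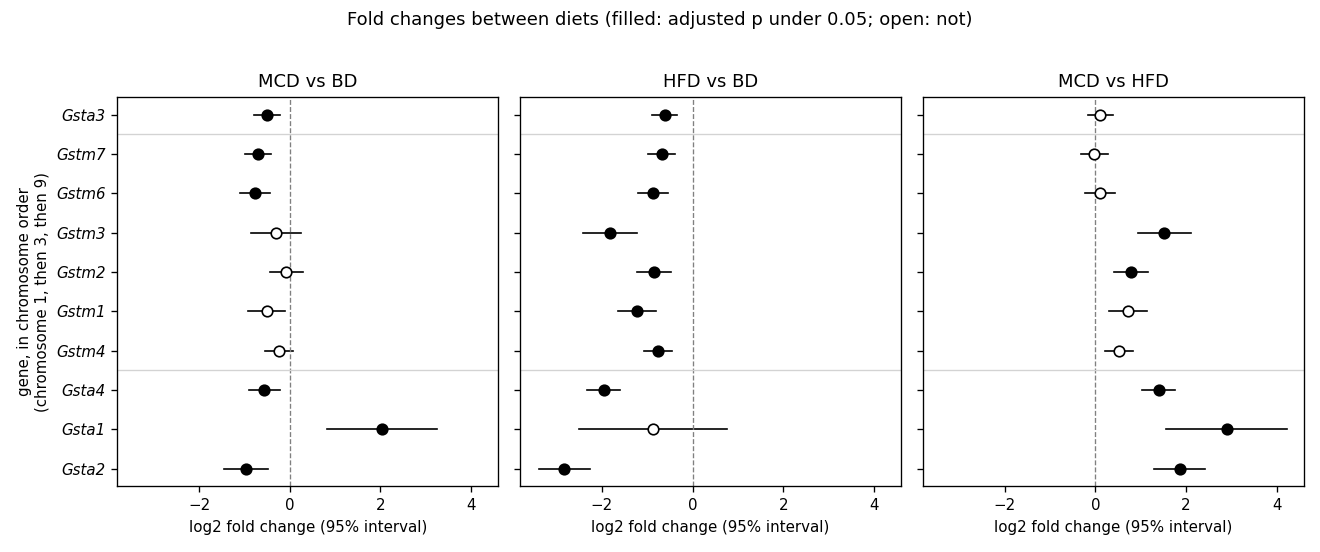
Fold changes (log2) of the 10 members in MCD vs BD, HFD vs BD and MCD vs HFD, with 95% intervals, in chromosome order from top to bottom (Gsta3 on chromosome 1, the mu cluster on chromosome 3, the Gsta4, Gsta1 and Gsta2 cluster on chromosome 9). Filled points have an adjusted p under 0.05. In MCD vs HFD the points of Gsta3, Gstm7 and Gstm6 lie at -0.02 to 0.11 and those of the other 7 genes at 0.52 to 2.90.

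The fold changes in MCD against HFD were also read by position after they were seen, which is a description with no test. Along the mu cluster the log2 fold changes were -0.02 for Gstm7, 0.10 for Gstm6, 1.52 for Gstm3, 0.78 for Gstm2, 0.72 for Gstm1 and 0.52 for Gstm4. At the chromosome 9 cluster the fold changes were 1.40 for Gsta4 and 1.86 for Gsta2, against 0.11 for Gsta3, the alpha gene on chromosome 1. Gsta1, between Gsta4 and Gsta2, is left out here because it passed the filter through MCD only. Likeness crossed the classes. Gsta3 varied over the 15 libraries most like Gstm6 (Pearson r = 0.959 of log2 CPM), and Gsta2 most like Gstm1 (r = 0.955). Gstm6 and Gstm7 had r = 0.949 and Gsta2 and Gsta4 r = 0.942, against 0.694 for Gsta2 with Gsta3. These correlations describe the same 15 libraries, whose diets and depths all the genes share.

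Some libraries stood at 1 end of their diet for several members. HFD replicate 2 had the highest HFD level of 6 members (Gsta1, Gsta2, Gsta4, Gstm1, Gstm2 and Gstm3) and the lowest of 1 (Gstm7). MCD replicate 2 was the highest MCD library for 6 members, MCD replicate 3 the lowest for 6, and BD replicate 4 the highest BD library for 9. With HFD replicate 2 and MCD replicate 3 left out, all 10 members were called in HFD against BD, 7 in MCD against BD and 7 in MCD against HFD, Gsta1 included in each. Over all genes tested, 320 were then called higher and 316 lower in HFD against BD, and 1657 and 1115 in MCD against BD. In MCD against HFD 883 of 12203 genes were called higher and 482 lower, against 271 and 113 of 12193 with all libraries. The pair was picked by its place in these same data. Leaving it out by itself parts MCD from HFD, here and in the lists below.

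**Figure D5:**
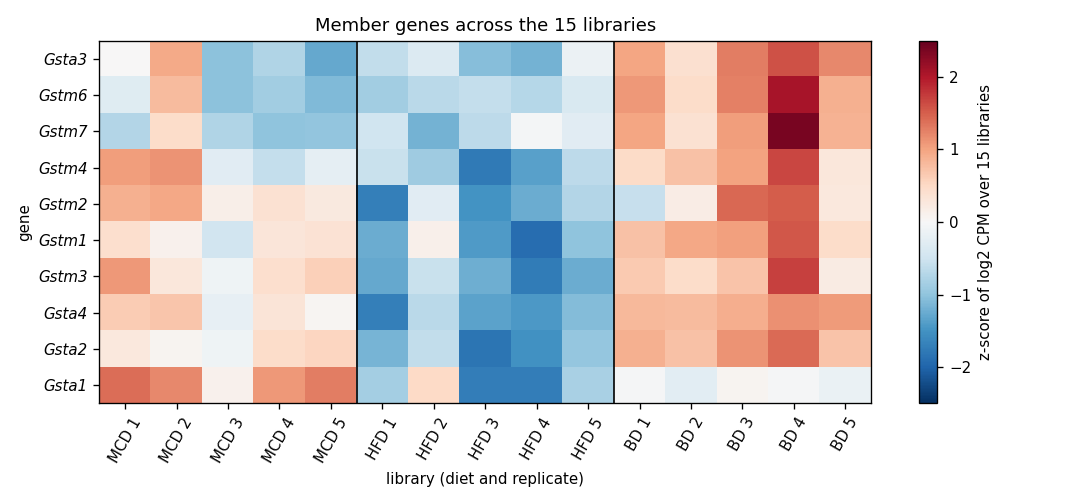
Level of each member in each library as a z-score of log2 CPM over the 15 libraries (red above and blue below the gene's mean), with libraries grouped by diet. Most HFD cells are blue, those of Gsta1 and Gstm1 in replicate 2 being the exceptions, and in MCD the top 3 rows (Gsta3, Gstm6 and Gstm7) are blue or white outside replicate 2 while most cells of the other genes are near or above the gene's mean.

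Other genes around the transferases were counted by lists chosen with earlier results of these data known. Beside every list stand the shares of all genes tested, 12.8% called higher and 8.64% lower in MCD against BD. The shares were 3.65% and 3.27% in HFD against BD and 2.22% and 0.927% in MCD against HFD. Of 11 tested genes of the pi, theta, omega and other classes, 1 rose and 3 fell in MCD against BD, and 3 fell in HFD against BD, with medians of -0.14 and -0.27 (log2). In MCD against HFD edgeR called 0 of them, 3 were higher at an unadjusted p under 0.05, and DESeq2 and limma-voom called 1 each. With HFD replicate 2 and MCD replicate 3 left out, edgeR called 3. Gstt3, a theta form, averaged 39.7 CPM in MCD, 32.7 in HFD and 91.4 in BD. Its fold changes against BD were -1.20 ± 0.17 in MCD (log2, SE, adjusted p = 0.000131) and -1.47 ± 0.18 in HFD (adjusted p = 4.2e-05). Those of Gsto1, an omega form, were -0.52 ± 0.08 in MCD (adjusted p = 0.000209) and -0.77 ± 0.08 in HFD (adjusted p = 8.38e-06). Gstm5, a further mu gene, was called in no comparison and ran from 7.38 to 15.6 CPM over the 15 libraries.

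Among 13 genes of glutathione synthesis and recycling, 1 rose and 2 fell in MCD against BD, 3 fell in HFD against BD, and 1 rose in MCD against HFD. Without HFD replicate 2 and MCD replicate 3 the counts in MCD against HFD were 2 higher and 1 lower. Cth, which makes cysteine from cystathionine, had the smallest p of the list in both comparisons with BD. It averaged 225.2 CPM in MCD, 225.3 in HFD and 639.7 in BD, and its fold change against BD was -1.51 ± 0.14 in both diets (log2, SE, adjusted p = 1.35e-06 in MCD and 1.51e-06 in HFD). For Cbs, the step before it, the fold changes were -0.84 ± 0.12 in MCD (adjusted p = 0.000125) and -0.56 ± 0.12 in HFD (adjusted p = 0.00746). Gss, glutathione synthetase, rose in MCD by 0.79 ± 0.14 against BD and by 0.56 ± 0.14 against HFD (adjusted p = 0.000499 and 0.0329). It was chosen after its values were seen, as the list's 1 gene that rose.

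Of 13 tested genes that turn glutathione conjugates into mercapturates or export them, 1 rose and 5 fell in MCD against BD and 3 fell in HFD against BD. Nat8, which acetylates cysteine conjugates, had fold changes of -0.76 ± 0.14 in MCD (log2, SE, adjusted p = 0.000678) and -1.11 ± 0.14 in HFD (adjusted p = 7.08e-05). Ggt6, of the gamma-glutamyltransferase family, had -1.14 ± 0.17 in MCD (adjusted p = 0.000172) and -1.01 ± 0.18 in HFD (adjusted p = 0.00134). In MCD against HFD edgeR, DESeq2 and limma-voom each called 0 of the 13, and an unadjusted p under 0.05 was reached by 1 gene that was higher and 1 that was lower.

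Targets of the factors known to induce the family were counted next. Of 19 tested NRF2 targets outside the family, 2 rose in MCD against BD, 1 rose and 2 fell in HFD against BD, and 1 rose in MCD against HFD. The 2 of 19 in MCD against BD were near the 12.8% of all genes tested that were called higher there. With HFD replicate 2 and MCD replicate 3 left out, 5 rose in MCD against BD, 0 rose and 4 fell in HFD against BD, and 8 rose in MCD against HFD. These 2 libraries were picked by their place in the same data, and the higher calls over all genes in MCD against HFD went from 271 to 883. The 8 are therefore not read as a trait of this list. DESeq2 called 4 higher in MCD against BD, 1 higher and 4 lower in HFD against BD, and 2 higher in MCD against HFD. Hmox1, heme oxygenase, rose by 0.81 ± 0.12 in MCD (log2, SE, adjusted p = 0.000168) and by 0.45 ± 0.12 in HFD against BD (adjusted p = 0.0325). The call of Hmox1 in HFD ended with limma-voom and without HFD replicate 2 and MCD replicate 3, where no NRF2 target was called higher. Aox1, aldehyde oxidase, was not called in MCD (-0.16, adjusted p = 0.378) and fell by 0.51 ± 0.12 in HFD (adjusted p = 0.0131). The list's medians were 0.16 in MCD against BD, -0.07 in HFD against BD and 0.32 in MCD against HFD.

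Of 16 tested targets of CAR and PXR, 1 rose and 8 fell in MCD against BD, 8 fell in HFD against BD, and 2 rose and 1 fell in MCD against HFD. Without HFD replicate 2 and MCD replicate 3 the counts in MCD against HFD were 6 higher and 2 lower. Cyp3a11, a PXR-induced P450, averaged 1507 CPM in MCD, 898 in HFD and 6559 in BD. Cyp2c55, another P450 of the list, averaged 3.30 CPM in MCD, 3.23 in HFD and 23.1 in BD, at fold changes of -2.78 ± 0.16 in MCD (log2, SE, adjusted p = 3.97e-09) and -2.86 ± 0.17 in HFD (adjusted p = 4.98e-09). The list's medians were -0.48 in MCD against BD, -0.71 in HFD against BD and 0.19 in MCD against HFD.

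Among 18 regulator genes, 4 rose and 2 fell in MCD against BD and 1 rose in HFD against BD. Maff, a small MAF partner of NRF2, averaged 9.80 CPM in MCD, 4.67 in HFD and 2.30 in BD and rose by 1.92 ± 0.28 in MCD against BD (log2, SE, adjusted p = 0.000124), with 0.88 ± 0.29 in HFD (adjusted p = 0.0807). Ppara, a fatty acid sensing receptor, rose by 0.62 ± 0.14 in MCD (adjusted p = 0.00347) and by 0.96 ± 0.14 in HFD (adjusted p = 0.000242). Maff also rose in MCD against HFD, by 1.04 ± 0.26 (adjusted p = 0.0371).

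Markers of other liver cells moved with the diets as well. Of 13 macrophage markers, 12 rose in MCD against BD, 4 in HFD against BD and 3 in MCD against HFD, and their summed level ran from 627 to 785 CPM in MCD, from 439 to 644 in HFD and from 286 to 496 in BD. The count in MCD against HFD was 6 without HFD replicate 2 and MCD replicate 3. Of 9 tested stellate cell markers, 8 rose in MCD against BD and 5 in MCD against HFD, with sums of 556 to 965 CPM in MCD, 388 to 555 in HFD and 309 to 406 in BD. In HFD against BD edgeR and limma-voom called 0 stellate markers, DESeq2 called 1, and 4 were higher at an unadjusted p under 0.05.

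Of 6 endothelial markers, 3 rose in MCD against BD and 1 in MCD against HFD, with sums of 294 to 313 CPM in MCD, 231 to 272 in HFD and 233 to 301 in BD. Of 4 tested cholangiocyte markers, 1 rose and 1 fell in MCD against BD and 1 fell in HFD against BD, with sums of 78.9 to 255 CPM in MCD, 59.2 to 193 in HFD and 56.6 to 96.4 in BD. Lymphocyte markers summed to 3.96 to 8.17 CPM in MCD, 2.12 to 5.21 in HFD and 1.86 to 4.22 in BD, and neutrophil markers to 0.838 to 2.47 CPM in MCD, 0.676 to 1.42 in HFD and 0.236 to 1.13 in BD. Of 6 lymphocyte markers 1 passed the filter and edgeR called 0, at an unadjusted p under 0.05 as well, and none of the neutrophil markers passed it. DESeq2, run without that filter, called 2 lymphocyte markers and 1 neutrophil marker higher in MCD against BD and 1 lymphocyte marker higher in MCD against HFD. None of the marker genes in the files was at 0 in every library. The part of other cells in the levels of the transferases was not tested.

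The tissue carried its hepatocyte markers at high levels, with sums of 146820 to 194870 CPM in MCD, 145980 to 176570 in HFD and 163140 to 181430 in BD. Of the 12 markers 4 fell in MCD against BD and 1 fell in MCD against HFD. In HFD against BD edgeR, DESeq2 and limma-voom called 0 of them, with 3 lower at an unadjusted p under 0.05. Their medians were -0.28 in MCD and -0.14 in HFD against BD (log2), against -0.51 and -0.87 for the 9 transferases. With library sizes set by these markers, chosen for the class sums after the data were seen, the alpha sum was 83.2% of the BD mean in MCD and 70.4% in HFD, and the mu sum 84.0% in MCD and 50.1% in HFD.

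The zones of the liver lobule were followed through their marker genes. Of 10 periportal markers, 1 rose and 5 fell in MCD against BD and 6 fell in HFD against BD, with medians of -0.72 and -0.55 (log2). Of 10 pericentral markers, 2 rose and 2 fell in MCD and 3 rose and 1 fell in HFD against BD, with medians of -0.13 and 0.08. Whether the zone in which a transferase is expressed plays a part was not tested.

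Outside the alpha and mu classes, the genes whose levels followed the mean profile of the 10 members most closely over the 15 libraries were Cryl1 (Pearson r = 0.92), Akr1c19 (0.896), Anxa6 (0.895), Selenbp1 (0.894) and Ppp1r1b (0.89), out of 9036 genes with a mean of at least 5 CPM. Taken singly, Gsta3 was most like Sqrdl (0.971), Gstm6 most like Cdo1 (0.959) and Gstm7 most like Hgd (0.958). Gsta4 was most like Ces1b (0.948), Gsta1 most like Idh2 (0.946), Gstm1 most like Slco1a4 (0.931), Gstm4 most like Cyc1 (0.925), Gsta2 most like Cryl1 (0.917), Gstm3 most like Creg1 (0.905) and Gstm2 most like Ntan1 (0.859). These values describe 15 libraries in 3 diets and were not tested. The value of Gsta1 rests on 0 to 17 counts a library in HFD and 3 to 15 in BD, near the floor. Gsta1 passed the filter through MCD only and is also part of the mean profile.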

How the data were processed

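Each library has 1 deposited file of raw read counts by gene symbol. The submitters' processing notes name GRCm38/mm10, TopHat2 (2.0.13), Trimmomatic, HTSeq and DESeq2, and per the labels the kit kept strand. Annotation, strand setting, counting mode and read length are not given in the sources read, so overlapping and antisense genes are uncertain. The 5 closing lines for reads given to no gene were left out throughout. They held 12.7% to 17.0% of uniquely placed reads as outside genes, 0.567% to 0.841% as ambiguous, and 1.15 to 2.80 non-unique alignments for each gene count.

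The counts were tested with edgeR 4.0.16 (R 4.3.3): TMM factors, filterByExpr by diet (minimum count 10, minimum total 15; 12193 genes), 1 robust quasi-likelihood fit over all 15 libraries and two-sided F tests between diets. The threshold for a call was a Benjamini-Hochberg adjusted p under 0.05 over all genes tested. SEs were derived from the F statistic. CPM values use the TMM factors, and CPM per kb 1 representative transcript per gene (GENCODE M21). No test was made over the members as a list. Intervals cover the fitted spread, and 3 counts were taken as the floor.

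The members and lists were chosen with earlier results of these data known. Named outside the members are at most 2 genes a list, with the smallest p against BD, and the genes most like the members. Outside this rule, Gss was named after its values were seen, and Gm3776 and Gm10639 for their sequence. Of the listed symbols, 5 were found under another RefSeq synonym, such as Trf for Tf. Replicates were numbered in accession order and pair nothing. No replicate pair of a diet agreed within sampling noise (chi-square over degrees of freedom of 7.34 to 66.6 for 30 pairs). The fit was tested on simulated counts. Alternatives were DESeq2 1.42.0, limma-voom (limma 3.58.1), other scalings, filters, thresholds and samples, counts thinned to the shallowest library, a covariate for non-unique alignments, and leaving out each library.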

Additional observations from a re-analysis of the deposited data

Results flagged for a closer look

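Of 30 groups of 5 libraries (10 genes in 3 diets), 4 held a library far from the other 4. The limit used gives about 1 in 20 for independent groups of normally spread values. These groups share libraries and were taken as CPM without a log, so 4 of 30 cannot be set against that rate. The libraries were Gsta1 in HFD replicate 2 (1.60 CPM), Gstm7 in MCD replicate 2 (67.9 CPM), Gstm3 in BD replicate 4 (127.1 CPM) and Gstm7 in BD replicate 4 (115 CPM). Each was the highest library of its diet.

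For 5 genes the change from BD differed between MCD and HFD by the test of MCD against HFD in the same fit. The difference was 2.90 for Gsta1, 1.86 for Gsta2, 1.52 for Gstm3, 1.40 for Gsta4 and 0.78 for Gstm2 (log2, edgeR adjusted p = 0.0224, 0.00278, 0.0119, 0.00119 and 0.0252). The value of Gsta1 is a description, since the gene passed the filter through MCD only.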

How the results depend on the processing

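The 9 members called in HFD against BD kept that number in all but 1 of the alternatives (10 without HFD replicate 2 and MCD replicate 3) and, with each library left out in turn, ran from 9 to 9. With Gsta1 counted, 6 members were called in MCD against BD (5 to 7 with 1 library left out, 3 at an adjusted p under 0.01) and 5 in MCD against HFD (3 to 7 with 1 library left out, 2 at an adjusted p under 0.01, 3 with the covariate for non-unique alignments). The count of 3 was reached without MCD replicate 1 or HFD replicate 1, 3 or 4. Without Gsta1 the counts over all libraries were 5 of 9 in MCD against BD and 4 of 9 in MCD against HFD. The ranges given here include Gsta1, which passed the filter through MCD only. No member that was called turned round. Among those not called, Gstm2 in MCD against BD was 0.068 without TMM factors, 0.17 with hepatocyte marker sizes and -0.16 to 0.049 with 1 library left out, and Gstm4 was 0.014 with hepatocyte marker sizes (log2). In MCD against HFD, with 1 library or that pair left out, Gsta3 ran from -0.023 to 0.20, Gstm6 from -0.071 to 0.18 and Gstm7 from -0.14 to 0.031. Gstm7 was 0.047 without TMM factors, 0.074 with hepatocyte marker sizes and 0.041 with the covariate. The causes were not tested. The median of all genes was 0.13 in HFD and 0.22 in MCD against BD with hepatocyte marker sizes and 0.06 and 0.12 without TMM factors, against -0.01 and -0.03 with TMM (log2). Hepatocyte marker sizes split the calls into 817 higher and 200 lower in HFD and 3167 and 358 in MCD, against 445 and 399 in HFD and 1557 and 1053 in MCD with TMM. Without TMM factors the splits were 589 and 297 in HFD and 2308 and 512 in MCD. In MCD against HFD the splits were 299 and 57 with hepatocyte marker sizes and 411 and 67 without TMM factors, against 271 and 113 with TMM. No paired analysis was possible because the diets share no sample number in the labels. Depth limits Gsta1 most, with 3 counts worth up to 0.851 CPM.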
